A study of Mus musculus with 12 samples.

Results

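Genes whose mouse symbol is Zfp followed by a number, and at most 1 letter, code for zinc finger proteins. They were selected on the deposited coding-sequence (CDS) counts. A gene was kept when its mean raw count over the 4 RNA-Seq libraries of the drug experiment was at least 37. Of 20504 genes in the table, 350 carried such a symbol, and 290 reached the minimum. The 60 others are not described further. All 290 had a RefSeq position in the GRCm38.p6 assembly.

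Most Zfp genes code for C2H2 proteins, in which a pair of cysteines and a pair of histidines hold a zinc ion in each finger and the fingers read DNA bases. Many of these proteins also carry a KRAB domain that recruits the corepressor Trim28 (KAP1), which in turn brings histone methylation and silences retroelements and imprinted alleles. The symbol also covers proteins with other tasks. Zfp36 (tristetraprolin) has CCCH fingers and destabilises mRNAs, Zfp598 is a ubiquitin ligase that acts on collided ribosomes, and Zfp622 takes part in the maturation of the large ribosomal subunit.

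The brain tissue came from adult Camk2a-RiboTag mice. For the AZD-8055 and vehicle mice the study's methods name the right frontal lobe, so their values are not those of whole brain. In this cross the Camk2a promoter drives Cre in principal excitatory neurons of the forebrain, and Cre switches on a hemagglutinin (HA) tag on the ribosomal protein Rpl22, so every group carried both alleles. Mice A and B were labelled untreated and received the vehicle by gavage according to the study's methods. Mice C and D received the mTOR inhibitor AZD-8055 as a single oral dose of 100 mg/kg, and tissue was taken 1 h later. Each of these 4 mice gave a poly(A) RNA-Seq library and a ligation-free ribosome profiling library from the same lysate. From mice E and F, whose labels name no treatment, RNA-Seq was done on the homogenate (input) and on the polysomes pulled down with the HA tag (IP).

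Each group therefore had 2 mice. The study states that the libraries were matched, but the labels do not say which ones share a mouse, so the letters follow the order of the samples. CDS totals were 9395385 to 10649939 counts for the 4 RNA-Seq libraries and 3503873 to 9259938 for the 4 footprint libraries, and exon totals were 19681269 to 27878212 for the input and IP libraries. The summed level of 8 excitatory markers was 3181 and 3017 CPM, the count scaled to library size, in input E and F and 6948 and 6910 CPM in IP E and F. The 8 genes did not all rise. In the IP test described below 4 were called enriched and 1 had a negative log2 change (-0.54), with a median of 0.98. The sum of 8 inhibitory markers fell from 981 and 1039 to 222 and 169 CPM, and the glial and endothelial sums fell further, although no marker was at 0 in an IP library.

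The Zfp genes were expressed at low to moderate counts. The median of the members' mean RNA-Seq count was 157.75 per library, and together they held 0.740 to 0.772% of the RNA-Seq counts. The highest was Zfp365, which codes for a protein that binds the neurodevelopmental scaffold Disc1, with 2677, 2783, 3187 and 3015 counts in mice A, B, C and D. Zfp106, an RNA-binding protein needed by motor neurons, followed with 2361, 2346, 2330 and 2236 counts, and then Zfp445, Zfp523 and Zfp207 with means of 1819.25, 1652.5 and 1214.75. Raw counts also grow with the length of a coding sequence, so this order is not an order of transcript number. Just inside the minimum lay Zfp619 (mean 37), Zfp449 (40) and Zfp296 (40.25), and just outside lay Zfp879 (36.75), Zfp458 (35.25) and Zfp202 (35.25).

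The first comparison asked how well these mRNAs were translated in the brain tissue of vehicle mice. Translation efficiency (TE) is the ratio of a gene's footprint count to its RNA-Seq count in the same mouse, after DESeq2 size factors, so that a log2 TE near 0 marks the typical gene. The members held 0.443 to 0.464% of the footprint counts, a smaller share than of the RNA-Seq counts in each of the 4 mice. With at least 75 counts of each kind summed over mice A and B, 225 members and 10882 genes in all had a TE. The median log2 TE of the members was -0.50, against 0.02 over all genes, a difference of -0.52. The RNA-Seq counts that form the denominator also chose the members.

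The low TE was seen in each mouse. With at least 37 counts of each kind in the single mouse, the members' median lay below that of all genes by a log2 difference of -0.48 and -0.53 in vehicle mice A and B, and of -0.50 and -0.47 after AZD-8055 in C and D. Of the 225 members, 165 (73.3%) lay below the median of all genes, 151 of them in both vehicle mice. Another 50 lay above it in both, and 24 changed side. The standard deviation of the difference between the 2 mice was 0.36 across members, while the members spanned a log2 TE of -4.77 to 2.26 and the correlation of mouse A with mouse B across these genes was r = 0.93.

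**Figure D1:**
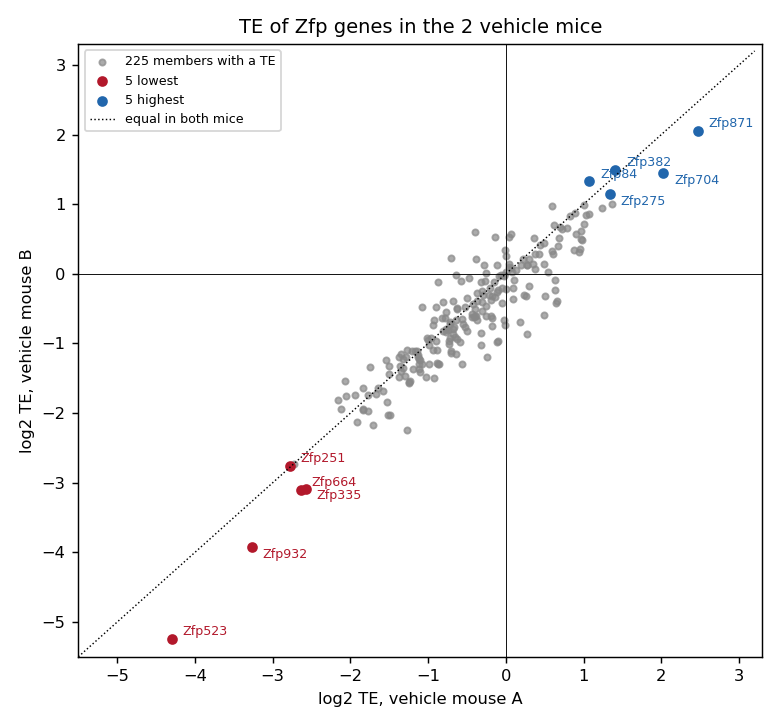
Log2 TE of each of the 225 members in vehicle mouse A (x axis) and vehicle mouse B (y axis), 1 point per gene, with the dotted line marking equal values. Most points lie near the line and below 0 in both mice, and Zfp523 and Zfp871 mark the extremes at means of -4.77 and 2.26.

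edgeR's quasi-likelihood test of footprints against RNA-Seq in mice A and B, fitted over all genes, called a TE different from the typical gene at a Benjamini-Hochberg adjusted p under 0.05 and a fold over 2. It called 91 members lower, which is 33% of the 276 members with a mean of at least 37 counts over the 4 libraries, beside 17.5% of all 11891 genes tested. It called 9 members higher (3.26%), beside 13.3% of all genes. Since the members were chosen on the RNA-Seq counts that TE divides by, a member can enter this test through RNA alone. Among the 225 members with 75 counts of each kind, 59 were called lower (26.2%) and 9 higher (4%), beside 14.3% and 13.4% of the 10876 genes that met both that minimum and the RNA-Seq minimum of 37. This filter was added after the data were seen, and the shares describe the members without testing them. The median fitted log2 TE was -0.59 for the members and -0.01 for all genes. In the AZD-8055 mice C and D, which that fit did not use, the log2 TE of these 59 members was under 0 in both mice for all 59. The RNA-Seq counts of C and D had entered the choice of members, and the 59 were picked for a low TE. The same share for all genes called lower was not computed, so this is a description and no independent test.

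The lowest TE belonged to Zfp523, the mouse counterpart of human ZNF76 and a relative of the promoter-binding factor Zfp143 (chromosome 17, 28177196 to 28205886). Mouse A had 66 footprints beside 1442 RNA-Seq counts and mouse B had 18 beside 1557. The log2 TE was -4.30 in A and -5.25 in B, and the fit gave -4.54 (SE 0.15, adjusted p 1.8e-11). The AZD-8055 mice gave -4.37 and -4.00, so all 4 mice lay far below the typical gene. Zfp932, a KRAB zinc finger protein that silences endogenous retroviruses (chromosome 5, 109996502 to 110012266), had 66 and 22 footprints beside 705 and 764 RNA-Seq counts. Its log2 TE was -3.27 and -3.93, and the fit gave -3.44 (SE 0.15, adjusted p 1.7e-10).

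Zfp335, a chromatin factor required in neural progenitors (chromosome 2, 164891882 to 164912585), had 137 and 59 footprints beside 905 and 1140 RNA-Seq counts, with a log2 TE of -2.58 and -3.08. Zfp664 (chromosome 5, 124862705 to 124888630) gave -2.64 and -3.10 from 71 and 27 footprints. Zfp251 (chromosome 15, 76852131 to 76871435) gave -2.78 and -2.75 from 71 and 37 footprints. All 3 were called lower, with fitted values of -2.76, -2.75 and -2.73. Zfp692 had a fitted value of -4.26 but only 36 and 18 footprints beside 711 and 903 RNA-Seq counts, too few for the ranking of TE.

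The highest TE belonged to Zfp871 (chromosome 17, 32765496 to 32788287). Mice A and B had 704 and 320 footprints beside 141 and 176 RNA-Seq counts, so that footprints outnumbered RNA-Seq counts in both. Its log2 TE was 2.47 and 2.05, and the fit gave 2.31 (SE 0.12, adjusted p 7.2e-10). Zfp704 (chromosome 3, 9427010 to 9610085) reached 2.02 and 1.45, and Zfp382, a KRAB repressor (chromosome 7, 30121833 to 30140758), reached 1.41 and 1.49. Zfp275 (chromosome X, 73342593 to 73359080) had a log2 TE of 1.34 and 1.15, and Zfp84 (chromosome 7, 29768552 to 29781419) one of 1.07 and 1.33. All 5 were called higher, and the RNA-Seq counts of the last 4 were 48 to 120 per library.

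**Figure D2:**
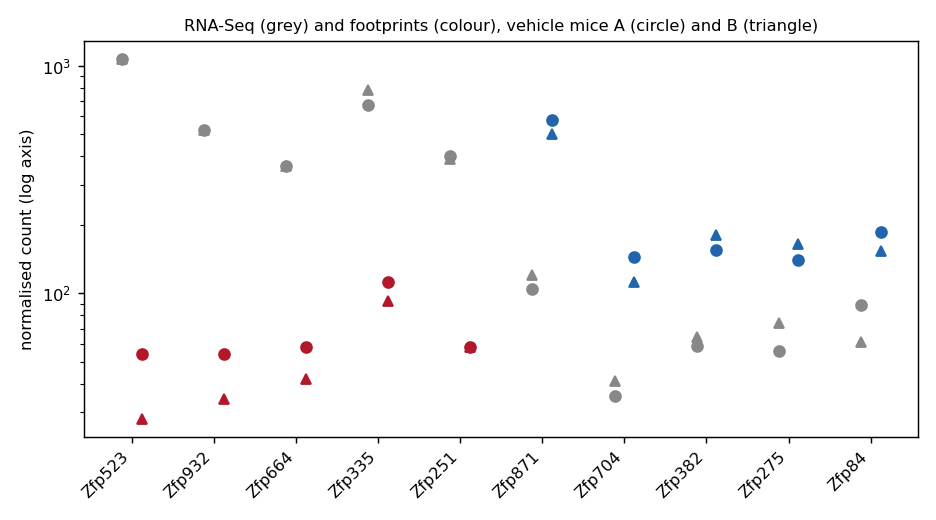
Size-factor normalised counts (log axis) of the 5 members with the lowest and the 5 with the highest TE in vehicle mice, RNA-Seq in grey and footprints in colour, circles for mouse A and triangles for mouse B. RNA-Seq lies above the footprints in both mice for the first 5 genes and below them for the last 5, and the 2 mice lie close together except for the footprints of Zfp523.

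A further 65 members had no TE because a count fell under 75, in 64 of them the footprints. They were 22.4% of the members, while 10.7% of the 12182 genes that met the same RNA-Seq minimum lacked a TE. Their footprints over both mice were 7 to 81, with a median of 50. When every member was kept and a pseudocount of 1 was added, the median log2 TE was -0.66 for the 290 members and -0.09 for the 12182 genes, and 213 members (73.4%) lay below the median of all genes. Of the 65, 61 lay below it.

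The gap between members and all genes was present at each RNA level. It was -0.43 for the 80 members with a mean of 37 to 100 RNA-Seq counts, -0.60 for the 131 with 100 to 300, and -0.82 for the 79 with 300 and over. Across the 225 members the log2 TE correlated with the log2 mean RNA-Seq count at r = -0.53, as a description over genes in which the RNA-Seq count enters both measures.

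**Figure D3:**
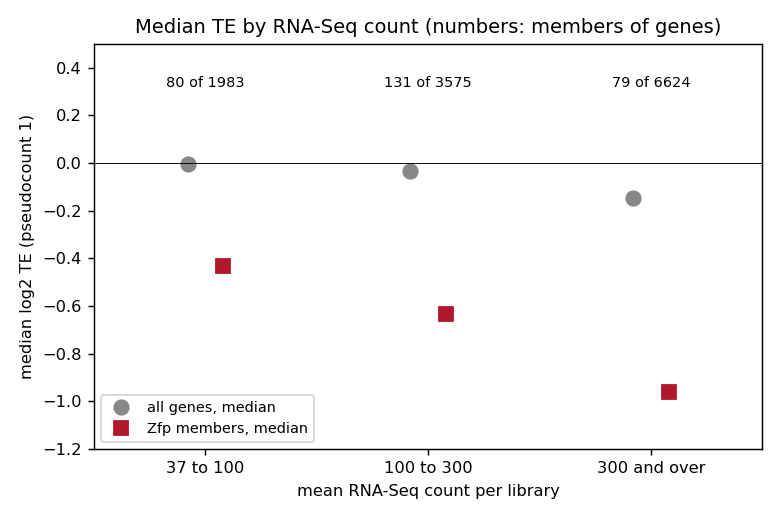
Median log2 TE with a pseudocount of 1 (y axis) of all genes (grey circles) and of the Zfp members (red squares) in 3 ranges of mean RNA-Seq count (x axis), with the number of members among all genes of the range printed above. The members lie below all genes in each range, by -0.43, -0.60 and -0.82.

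Members of known function did not share 1 direction. The calls in the short lists below stand beside 17.5% lower and 13.3% higher over all genes tested, and no list was tested as a set. Among members that act on RNA or the ribosome, TE was called lower for Zfp106 (-2.0, SE 0.081) and Zfp598 (-1.83, SE 0.10) and higher for Zfp593 (1.01, SE 0.24), a ribosome biogenesis factor, of 9 tested. The median of the 9 was -0.06. The call for Zfp593 was lost without mouse A, at 0.92 and an edgeR adjusted p of 0.10, and its value fell under the fold limit with library totals (0.87), a minimum of 10 counts (0.99) or no minimum (0.90). Zfp207, a kinetochore and splicing factor, had a fitted log2 TE of 0.02 (SE 0.08).

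Of 13 tested members that belong to chromatin complexes, 4 were called lower and 0 higher in TE at this edgeR threshold. They were Zfp335, Zfp410, which activates the remodeller gene Chd4 (-1.25), and Zfp687 (-1.32) and Zfp592 (-1.07), which form a complex with Zmynd8. Without mouse B the value of Zfp592 was -0.98, under the fold limit. The third partner of that complex, Zfp532, had -0.75, while Zfp281, a pluripotency regulator, had 0.73 and Zfp711, an X-linked activator, 0.70, all within the fold limit. The median of the 13 was 0.14, beside -0.01 for all genes.

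Of 7 tested members known from neural development, Zfp423 (-1.39), which works with Ebf and Smad factors, and Zfp365 (-1.12) were called lower. Zfp536, which restrains neuronal differentiation, had 0.89 (SE 0.14), within the fold limit, and the median of the 7 was -0.43. Of 5 tested KRAB members known from imprints or retroelements, Zfp932 and Zfp57 (-2.15, SE 0.25) were called lower, and Zfp445, which guards imprints together with Zfp57, had -0.85 (SE 0.09). The 5 fitted values of this list lay between -3.44 and -0.25, with a median of -0.85.

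The partners of KRAB proteins were tested beside them, from a list of corepressors and silencing factors. Of 27 tested, 6 were called higher and 3 lower, beside 13.3% and 17.5% of all genes. Their median fitted log2 TE was 0.39. Trim28 itself had -0.27 (SE 0.07). The heterochromatin proteins Cbx5 (2.17) and Cbx3 (1.54) were called higher, and the methyltransferase Setdb1 (-1.25), the histone chaperone Daxx (-1.25) and the remodeller Chd3 (-2.85) lower.

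Zfp genes often lie side by side. Placed by RefSeq with gaps of at most 100000 bases, 129 members lay in clusters of 3 or more Zfp genes, 30 in pairs and 131 alone. TE was called lower for 32.2% of the tested clustered members, 37% of those in pairs and 32.8% of single ones, beside 17.5% of all genes. The members without a TE were 31.8% of the clustered ones and 11.5% of the single ones, and the median of the mean RNA-Seq count was 128.25 and 241 in these classes. Counts of clustered genes are less certain, since neighbouring copies can share sequence and a read that fits both cannot be placed, and the part of this in the TE values was not tested.

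Single clusters differed in their TE, described here after the values were seen and beside the 17.5% of all genes called lower. In the cluster of chromosome 7 from 24081877 to 24316698, with Zfp112, Zfp180 and Zfp235, 6 of 9 members were called lower and the median log2 TE with a pseudocount of 1 was -1.44. In that of chromosome 17 from 21450374 to 21994366, with Zfp51 and Zfp942, 4 of 7 were called lower and the median was -1.42. In that of chromosome 17 from 32765496 to 33110707, with Zfp871 and Zfp952, 0 of 8 were called lower by edgeR and the median was 0.14. The cluster with the most members, 14 on chromosome 7 from 29768552 to 30169775, held 4 members called lower as well as the high Zfp382 and Zfp84.

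The next comparisons asked what 1 h of mTOR inhibition did to these genes. No member passed the threshold in RNA, footprints or TE. In RNA, edgeR called 0 of 290 members higher and 0 lower at an adjusted p under 0.05, beside 0.0575% and 0.0903% of all 12182 genes, and DESeq2 also called 0. At an unadjusted edgeR p under 0.05, 7 members were higher and 16 lower. Genes without a change also pass this cut, and its share over all genes was not computed, so these counts are no result about the members. The median log2 change was -0.04 for the members and -0.00346 for all genes, and 185 members (63.8%) had a negative value beside 51.0% of all genes. Both AZD-8055 mice lay below both vehicle mice for 74 members (25.5%, beside 15.8% of all genes) and above them for 50 (17.2%, beside 23.6%).

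The largest rise in RNA among members was that of Zfp36, an immediate early gene. Its RNA-Seq counts were 37 and 51 in vehicle mice and 82 and 78 in AZD-8055 mice, so that the groups did not overlap. The log2 change was 0.77 (SE 0.23), at an unadjusted p of 0.0050 and an edgeR adjusted p of 0.31. Zfp551 and Zfp619 followed with 0.52 and 0.46. The largest fall was that of Zfp366, a corepressor known from dendritic cells, with 54 and 72 counts in vehicle and 33 and 36 in AZD-8055 mice. Its log2 change was -0.96 (SE 0.25, edgeR adjusted p 0.22). Zfp454 and Zfp273 had -0.72 and -0.64, also without passing the test.

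Footprints could be tested for 198 members, since 92 had a mean under 37 footprints. edgeR called 0 higher and 0 lower, beside 0.0468% and 0.982% of all 10695 genes, and DESeq2 called 0. At an unadjusted edgeR p under 0.05, 7 were higher and 12 lower, again without a share over all genes to set beside them. The median log2 change was -0.03, against 0.000991 for all genes. Both AZD-8055 mice lay below both vehicle mice in footprints for 43 members (21.7%, beside 20.0% of all genes). They lay above them for 32 (16.2%, beside 20.2%). Without mouse C, which had the shallowest footprint library, edgeR called 5 members. That fit set 1 AZD-8055 mouse against both vehicle mice, which alone gave the spread, so the treated mouse was assumed to vary like them. Zfp513 (0.94) and Zfp444 (0.61) were then higher, and Zfp715 (-0.66), Zfp326 (-0.47) and Zfp191 (-0.46) lower. In that fit 3.24% of all genes were called higher and 4.39% lower.

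With all 4 mice, the largest non-overlapping footprint rises were those of Zfp213, Zfp513 and Zfp523. Zfp213 had 52.5 and 86.0 normalised footprints in vehicle mice and 128 and 102 in AZD-8055 mice, a log2 change of 0.78 (SE 0.28, edgeR adjusted p 0.30). Zfp513 and Zfp523 had 0.71 and 0.68. Zfp955b had 74.6 and 56.3 in vehicle and 42.7 and 28.5 in AZD-8055 mice, a log2 change of -0.93 (SE 0.30, edgeR adjusted p 0.25). Zfp605 and Zfp322a had -0.73 and -0.61.

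The change in TE was tested as the interaction of drug and library kind in 269 members. edgeR called 0 higher and 0 lower at an adjusted p under 0.05 and a fold over 2, beside 0.00848% and 0.297% of all 11797 genes, and DESeq2 called 0. At an unadjusted edgeR p under 0.05, 8 were higher and 8 lower, also without a share over all genes. The median log2 change was 0.03 for the members and -0.01 for all genes. In TE both AZD-8055 mice lay below both vehicle mice for 55 members (20.4%, beside 20.8% of all genes). They lay above them for 47 (17.5%, beside 16.2%), so both shares lay near those of all genes. The median SE of a member's change was 0.27, beside 0.18 for all genes, so changes of single Zfp genes were measured less precisely than those of the typical gene. The 3 measures share the same libraries and are not independent of each other.

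Among members whose groups did not overlap, the largest log2 rises in TE were 1.17 for Zfp775 (SE 0.41), 0.94 for Zfp213 (SE 0.34) and 0.81 for Zfp692 (SE 0.27). The largest falls were -0.96 for Zfp51 (SE 0.36), -0.86 for Zfp759 (SE 0.49) and -0.81 for Zfp955b (SE 0.34). The log2 TE of Zfp51 was -0.97 and -0.87 in vehicle mice and -1.86 and -1.92 in AZD-8055 mice, resting on 9 and 12 footprints in the treated mice. None passed the test, the edgeR adjusted p of the 6 being at least 0.43. In the lists of members by function and of KRAB partners, edgeR called 0 in RNA, footprints and TE.

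**Figure D4:**
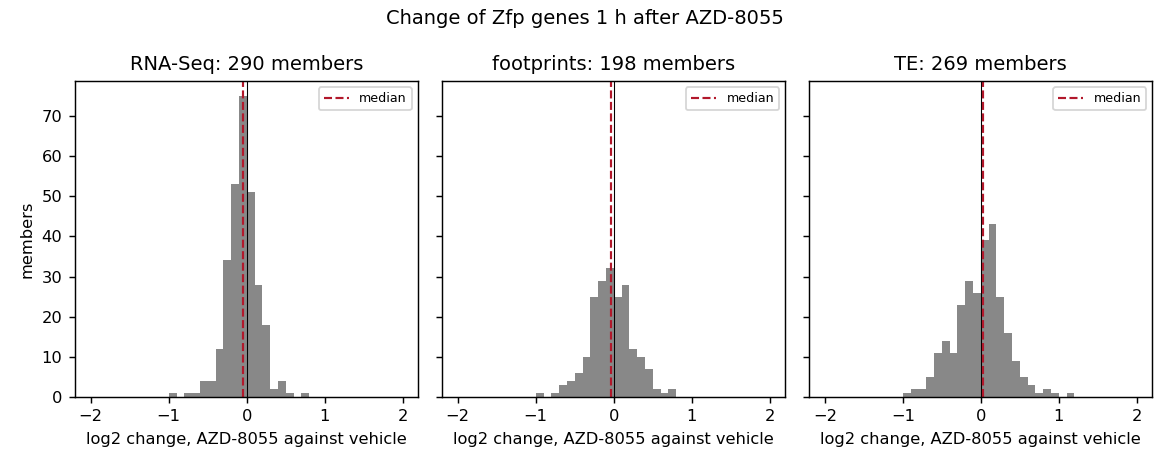
Histograms of the fitted log2 change after AZD-8055 against vehicle (x axis) in RNA-Seq (290 members), footprints (198) and TE (269), with the number of members on the y axis and the median as a dashed line. The 3 distributions centre near 0, with medians of -0.04, -0.03 and 0.03.

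The last comparison asked which Zfp mRNAs were bound by tagged ribosomes of Camk2a-expressing neurons, relative to the homogenate. edgeR on exon counts called 12 of 290 members enriched in IP (4.14%, beside 11.7% of 13254 genes) and 35 depleted (12.1%, beside 21.8%), at an adjusted p under 0.05 and a fold over 2. With exon counts, smaller shares of the members than of all genes passed in both directions. The SD of the log2 change was 0.74 over members and 1.18 over all genes. The members' median log2 change was -0.20 against -0.03, and their share of the exon counts was 0.856 and 0.891% in input and 0.665 and 0.671% in IP. Scaled by library totals, 6 members were enriched (2.07%, beside 5.84%) and 58 depleted (20%, beside 27.6%), and the median of all genes moved to -0.31. With no count minimum the members' median, -0.11, lay above that of all genes, -0.17. In bulk tissue, fewer cells of a type and less RNA per cell cannot be told apart.

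The values of mice E and F agreed closely across members, with r = 0.92. A member was higher in IP in both mice in 108 cases, lower in both in 140, and opposite in 42. With CDS counts 23 of 288 members were enriched (7.99%, beside 20.4% of all genes) and 73 depleted (25.3%, beside 26.1%), so that the depleted share lay near that of all genes. The members' median was then -0.34 against -0.07 for all genes, and the per-mouse means of 55 members changed sign. The members' exon counts exceeded their CDS counts by a median log2 ratio of 0.68 and 0.69 in the input libraries and 1.10 and 1.12 in the IP libraries. Over all genes it was 0.59 and 0.62 in input and 0.92 and 1.03 in IP.

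The strongest enrichment was that of Zfp296, which acts with Klf4 in reprogramming (chromosome 7, 19577287 to 19580656). It had 61 and 51 exon counts in input E and F and 129 and 145 in IP. The log2 IP over input was 1.63 and 2.22, and the fit gave 1.78 (SE 0.27, edgeR adjusted p 0.0014). Zfp771 (chromosome 7, 127242996 to 127254872) had 459 and 519 counts in input and 1030 and 1158 in IP, a log2 ratio of 1.72 and 1.87. Zfp428 (chromosome 7, 24504548 to 24515682) had 1.78 and 1.79, Zfp688 (chromosome 7, 127418963 to 127423241) 1.51 and 1.69, and Zfp707 (chromosome 15, 75969123 to 75975868) 1.59 and 1.51. The ribosome factors Zfp622 (1.24, SE 0.10) and Zfp593 (1.19, SE 0.20) were also enriched, and both fell under the fold limit when scaled by library totals (0.96 and 0.91).

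The strongest depletion was that of Zfp366 (chromosome 13, 99184823 to 99247032), which had 99 and 111 exon counts in input and only 4 and 2 in IP. Its log2 ratio was -4.08 in mouse E, with a 95% exact binomial counting interval of -5.98 to -2.68, and -5.08 in mouse F, with one of -8.15 to -3.20. Zfp369, a neurotrophin receptor interacting factor (chromosome 13, 65277228 to 65304222), had 331 and 473 counts in input and 26 and 35 in IP, a log2 ratio of -3.12 and -3.04. Zfp536 (chromosome 7, 37318023 to 37774039) had 275 and 277 counts in input and 16 and 44 in IP. Its log2 ratio was -3.55 and -1.94, so the 2 mice differed in size but not in direction. Zfp551 (chromosome 7, 12412549 to 12422739) had -1.41 and -2.29, and Zfp280c (chromosome X, 48541626 to 48594648) -1.91 and -1.64.

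Several regulators of neural development were lower in IP. Of 7 tested, Zfp536, Zfp521, a partner of Ebf factors (-1.39, SE 0.21), and Zfp292, a growth hormone gene regulator (-1.07, SE 0.11), were called depleted, and 0 were called enriched by edgeR. The median of the 7 was -0.72, beside -0.03 for all genes. Zfp292 fell just under the fold limit without mouse F (-0.99), with a minimum of 10 counts (-0.98) and with no minimum (-0.98). Of the imprint and retroelement list, Zfp57 (-1.37), Zfp809 (-1.14), which silences murine leukaemia viruses, and Zfp568 (-1.22) were depleted, and the median of 7 tested was -0.97. Zfp568 lies under the RNA-Seq minimum and is no member. Without mouse E, Zfp57 had -0.87 and Zfp809 -0.99. With CDS counts Zfp57 (-0.31) and Zfp809 (-0.57) lost the call, while Zfp445 had -0.97 with exon and -2.08 with CDS counts. Among KRAB partners 1 of 29 was enriched and 6 depleted, with Trim28 at 0.26 (SE 0.09). Over all genes, 11.7% were enriched and 21.8% depleted, and the depleted count of the partners lay near that share. No list was tested as a set. The sums of inhibitory, glial and endothelial markers fell in the same IP libraries, as given above, and their part in each depletion was not tested.

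**Figure D5:**
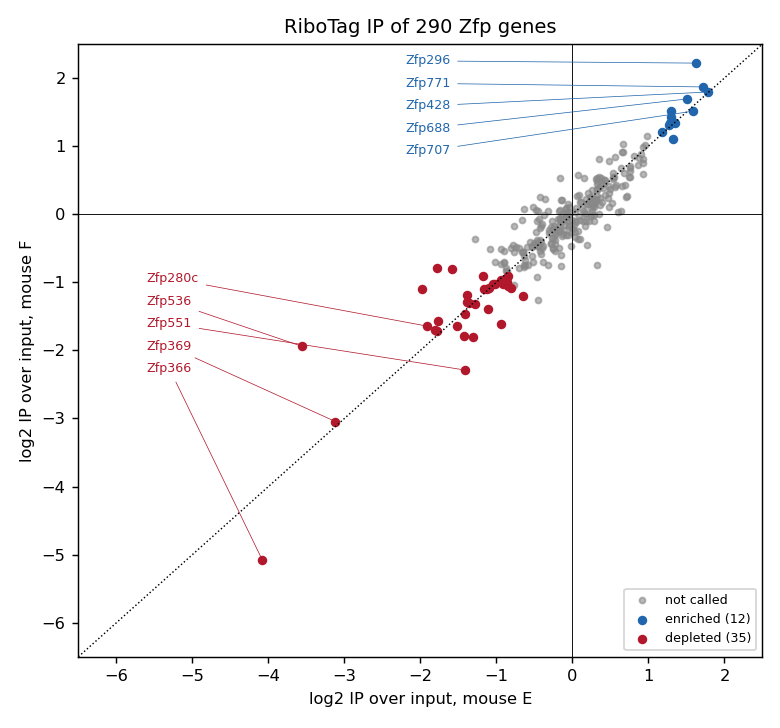
Log2 IP over input from exon counts for the 290 members in mouse E (x axis) and mouse F (y axis), with the 12 enriched members in blue and the 35 depleted ones in red. Zfp366, Zfp369 and Zfp536 lie far below the rest in at least 1 mouse, and Zfp536 lies off the dotted line of equal values.

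The members' length on the genome went with the IP value. Among the 97 members with the shortest RefSeq span, of 2286 to 13381 bases, 8 were enriched and 6 depleted. Among the 97 with the longest, of 22577 to 456017 bases, 1 was enriched and 19 depleted. Over all genes tested, 11.7% were enriched and 21.8% depleted, and the depleted count of the longest members lay near that share. The shares for all genes of like span were not computed. Spearman's rho of span and log2 change was -0.33 over the 290 members and also -0.33 over 12380 genes, as a description across genes. By IP class, the median log2 TE was 0.05 for the 28 depleted members with a TE, -0.73 for the 9 enriched ones and -0.54 for the 188 others, also given as a description. The relation was weak, since log2 TE and the log2 change in IP correlated at r = -0.18 over the 225 members. Over 10836 genes the value was -0.04.

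Start-site sequence was available from RefSeq (GRCm38.p6) for 239 members in 295 windows, and the 250 bases upstream of each start were searched on both strands. The GC box letters GGGCGG were in 42.4% of the members' windows and in 32.7% of all 32851, CCAAT was in 43.1% and 33.8%, and TATAAA in 7.46% and 12.4%. The median GC content was 55.6% and 52.4%. Unlike the members, the genes behind all windows were not held to a count minimum, and the part of this in the differences was not tested. The 100 bases before the start are shown for members called in IP that have 1 window ending at the outer bound of the gene, 2 enriched and the 3 most depleted of this kind, to let both kinds be read side by side. CG pairs, the sites that DNA methylation uses, are in capitals, and each sequence is written 5′ to 3′ on the gene's strand. Zfp296 (chr7:19577187-19577286, plus strand) and Zfp622 (chr15:25984266-25984365, plus strand) were enriched.
Zfp296: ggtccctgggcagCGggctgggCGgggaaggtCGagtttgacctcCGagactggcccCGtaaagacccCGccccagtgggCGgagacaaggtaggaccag
Zfp622: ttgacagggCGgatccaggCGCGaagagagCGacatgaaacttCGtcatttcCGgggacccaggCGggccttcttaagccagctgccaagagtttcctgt
Zfp36 (chr7:28379229-28379328, minus strand), Zfp652 (chr11:95748967-95749066, plus strand) and Zfp266 (chr9:20521420-20521519, minus strand) were depleted.
Zfp36: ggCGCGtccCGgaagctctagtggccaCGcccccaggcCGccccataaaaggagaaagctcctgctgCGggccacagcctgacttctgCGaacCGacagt
Zfp652: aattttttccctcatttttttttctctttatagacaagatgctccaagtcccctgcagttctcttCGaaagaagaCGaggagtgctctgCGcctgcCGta
Zfp266: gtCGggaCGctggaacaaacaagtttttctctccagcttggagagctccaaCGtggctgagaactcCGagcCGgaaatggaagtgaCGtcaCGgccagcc
Both enriched genes had 7 CG pairs in this stretch, and Zfp36, Zfp652 and Zfp266 had 8, 4 and 7, so the counts overlapped. The GC content was 69 and 58% in the enriched and 66, 44 and 57% in the depleted genes. No protein sequence was used here.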

How the data were processed

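The authors sequenced poly(A) RNA and ribosome footprints from mouse brain, filtered out ribosomal RNA reads by Bowtie2, mapped the rest by TopHat2 and assigned them to genes by HTSeq, and per the labels the build was mm10. They deposited whole-number counts per gene in 2 tables, CDS and exon. Reads were counted only where they mapped uniquely, which lowers the counts of genes with near-identical copies. Whether counting used strand is not given in the sources used here. Members and lists were chosen with earlier results of these data known, and the members were selected on RNA-Seq counts.

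The deposited counts were tested with edgeR 4.0.16 (R 4.3.3) by the quasi-likelihood test with TMM scaling, keeping genes whose mean count per library reached 37, and p-values were adjusted over all genes tested by Benjamini-Hochberg. Ratios per mouse used size factors from DESeq2 1.42.0, and DESeq2 was the alternative test. TE, RNA, footprint and TE changes used CDS counts and IP used exon counts. The SE printed with a fitted value was derived as the size of the log2 change over the square root of the test's F. Libraries with the same letter were taken as the same animal by sample order, which the labels do not state. Their deviations correlated at 0.26 (A and B) and 0.24 (C and D) between RNA-Seq and footprints and at 0.56 (E and F) between input and IP over all genes. Over the members the values were 0.15, -0.0091 and 0.54. Mouse was a block in an alternative. Figures were drawn with matplotlib 3.10.9.

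Named genes were the 5 highest and 5 lowest in TE, the 5 largest called changes a direction in IP and the listed members. The 3 genes on each side of the minimum and the 5 with the highest counts were also named. In each drug fit the 3 largest changes a direction were named, among members whose AZD-8055 mice both lay on the same side of both vehicle mice. A count of protein fingers and KRAB boxes was planned and not run, since protein sequences were not used here. p-values measure the spread between 2 mice a group, and intervals cover counting error only. Zfp191, Zfp259 and Zfp828 were placed by RefSeq synonyms.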

Additional observations from a re-analysis of the deposited data

How the results depend on the processing

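Call counts kept within 1.5 times of the reported ones under DESeq2 and under DESeq2 size factors in edgeR. With mouse as a replicate block, 9 members were higher and 90 lower in TE (3.26% and 32.6%, beside 13.4% and 17.3% of all genes). After AZD-8055, 0 had a higher and 0 a lower TE, beside 0.0593% and 0.305% of all genes. In IP 12 were enriched and 36 depleted (4.14% and 12.4%, beside 11.7% and 22%). The block changed no call of a named gene. Leaving out 1 mouse in turn gave 9 to 11 members higher and 88 to 93 lower in TE, 12 to 13 enriched and 34 to 42 depleted in IP, 0 to 2 with more and 0 to 3 with fewer footprints, and a relative median log2 TE of -0.53 to -0.48. Wherever this left a group with 1 mouse, it was assumed to vary like the other groups. Without the fold limit, 34 were higher and 153 lower in TE (12.3% and 55.4%, beside 36.6% and 36.9% of all genes) and 43 enriched and 91 depleted in IP (14.8% and 31.4%, beside 33.7% and 35.7%). With 75 counts of each kind, chosen after seeing the data, 9 were higher and 59 lower in TE (4% and 26.2%, beside 13.4% and 14.3% of all genes). Of 210 members with a mean of at least 100 counts, 5 were higher and 78 lower in TE (2.38% and 37.1%, beside 13.3% and 17.5% of all genes). In IP 10 of them were enriched and 23 depleted (4.76% and 11%, beside 11.7% and 21.8% of all genes). The relative median log2 TE of these members was -0.67. That median was -0.40 at 200 counts and -0.57 with every member and a pseudocount of 1. IP counts were 6 and 58 with library totals (5.84% and 27.6% of all genes) and 23 and 73 with CDS counts (20.4% and 26.1%). Without a count minimum 1 member, Zfp715, had fewer footprints after AZD-8055 (0.345%, beside 1.05% of all genes).

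Some fitted values changed sign. In TE these were Zfp207 (-0.11 with library totals, -0.000392 with a mean of 10 counts, -0.090 with no minimum, -0.016 without mouse B and 0.053 without A), Zfp518a (-0.00272 with library totals) and Zfp292 (-0.00126 with library totals, -0.11 without mouse A and 0.31 without B). In IP, library totals turned Zfp91 (-0.094), Zfp532 (-0.20), Zfp827 (-0.045) and Zfp365 (-0.14). Lower minimums turned Zfp281 (0.039 at 10 counts, 0.046 with none) and Zfp410 (0.00428 with none). CDS counts turned Zfp346 (0.58 to -0.41), Zfp91 (0.18 to -0.92), Zfp410 (0.021), Zfp532 (-0.70), Zfp827 (-0.00929), Zfp365 (-0.74) and Zfp423 (0.078). Zfp410 was 0.023 without mouse E and -0.19 without F, and Zfp532 was 0.20 without mouse E and -0.057 without F. Zfp518a, depleted by just over 2-fold, fell under the fold limit without either mouse, under DESeq2 (-0.97), with DESeq2 size factors (-0.97), at 10 counts (-0.92) and with no minimum (-0.91). The cause of these shifts was not tested. The planned protein features were not run.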

Other observations

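Other zinc finger families were measured in the same fits, with no test between families. Of 35 tested Zbtb genes, which pair fingers with a BTB domain, edgeR called 3 higher and 7 lower in TE, with a median fitted log2 TE of -0.04. Of 19 tested Zscan and Zkscan genes, 3 were higher and 5 lower, with a median of -0.59. Of 18 tested genes with a Klf or Sp symbol, 8 were higher and 2 lower, with a median of 0.89. The symbol also took in Sp100 and Sp140, which are not zinc finger factors of the Sp family. Sp140 was 1 of the 2 called lower in TE (-2.65), and Sp100 (-3.43) is among the depleted genes counted below. Values without these genes were not computed. In IP, 10 of 20 Klf and Sp genes were depleted and 1 enriched, 6 of 36 Zbtb genes were depleted and 0 enriched, and 5 of 20 Zscan and Zkscan genes were depleted and 0 enriched, all by edgeR at an adjusted p under 0.05 and a fold over 2. Over all genes tested, 13.3% were called higher and 17.5% lower in TE, and 11.7% enriched and 21.8% depleted in IP. The depleted counts of the Zbtb and of the Zscan and Zkscan genes lay near that share. DESeq2 counts and unadjusted counts were not computed for these families. After AZD-8055 edgeR called 0 of any of the 3 families in RNA, footprints or TE. The 225 members with a TE had an SD of 0.92 in log2 TE, beside 0.99 over the 10882 genes with one.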
